A study of Homo sapiens with 12 samples.

Results

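The replication-dependent histone genes encode the linker histone H1 and the core histones H2A, H2B, H3 and H4, the proteins on which DNA is wound in chromatin. They were taken as the genes on placed chromosomes whose symbols are H1-1 to H1-5 or begin with H2AC, H2BC, H3C or H4C followed by a number, which gave 65 of the 46931 genes in the table. Of these, 54 lie on chromosome 6 and 11 on chromosome 1. The classes hold 5 H1, 16 H2A, 17 H2B, 13 H3 and 14 H4 genes. Of the 65 genes, 61 had enough counts to be tested. H2AC1 and H2BC1 had 0 counts in every library, H4C6 had at most 11 counts in a library and H4C7 at most 4.

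Cells make these histones mainly in S phase, when new DNA has to be packed. Their mRNAs are known as the exception among animal mRNAs, because they normally end in a conserved stem-loop that is bound by SLBP, with no poly(A) tail. Some of the genes can also use a poly(A) signal further downstream, and such polyadenylated histone mRNAs are known from differentiated and resting cells. The libraries here were made from poly(A) RNA, so a level below is a level in such libraries and not that of all histone mRNA. RNAs known to lack a tail were also counted in them, to differing degrees. The tails of the histone RNAs were not measured.

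RNA was sequenced from MCF10A, an immortalised human mammary epithelial cell line for which the labels give no engineered genotype, in 4 groups of 3 libraries named a, b and c. Cells of siYT_XMU and siYT_DMSO carried siRNAs to both YAP and TAZ (2 sets, 11 nM). Cells of siC_XMU and siC_DMSO carried control siRNA (22 nM). After 48 h they received 5 µM XMU-MP1, an inhibitor of the Hippo kinases MST1 and MST2 (siYT_XMU, siC_XMU), or DMSO (siYT_DMSO, siC_DMSO), for 6 h. The labels do not say whether the letters stand for separate cultures, so p-values measure the spread between these libraries, which may be technical.

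The libraries held 8243351 to 67953633 counts, and the siRNA lowered its targets in all 6 knockdown libraries. YAP1 had 12.6, 9.09 and 7.84 CPM (counts relative to library size, TMM-scaled) in siYT_DMSO, against 201, 223 and 193 CPM in siC_DMSO. WWTR1, which encodes TAZ, changed by -2.96 (log2, SE 0.47, edgeR adjusted p = 0.000511) in DMSO. Of 10 mammary epithelial marker genes 0 were at 0 counts in any library. Their summed level was 9966 to 16306 CPM in siYT_XMU, 5966 to 13783 CPM in siYT_DMSO, 6767 to 8862 CPM in siC_XMU and 8289 to 9250 CPM in siC_DMSO. Library c of siYT_XMU stood apart, with the lowest total and 35% of its counts from ribosomal RNA, against at most 8.35% elsewhere. The summed level of 24 RNAs known to lack a poly(A) tail was 28194 CPM in it, against 52.9 to 2232 CPM in the other 11 libraries. Both 8.35% and 2232 CPM belong to library a of siYT_DMSO, which had the next lowest total (25246464 counts). Libraries b and c of siYT_DMSO had 311 and 84.1 CPM of these RNAs. Since histone mRNAs normally lack a poly(A) tail too, results that involve siYT_XMU are also given without its library c. Library a of siYT_DMSO was left out only among the fits with 1 library left out.

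The stem-loop and the promoter motifs are shown first, because they are features for which these genes are known. The stem-loop was found in annotated transcripts (GENCODE v29) of 28 of the 65 genes, in 6 spellings. Many other genes have only short annotated transcripts. Those of H3C1, H2BC3 and H4C1 hold 411, 381 and 312 bases, in spans of 508, 487 and 402 bases. A loop past an annotated end could not be found, so a gene without a match may still have one. The most frequent, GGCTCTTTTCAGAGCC, was present in 15 genes, while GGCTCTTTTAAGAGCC was present in 4, namely H2BC4, H2BC5, H2BC7 and H3C8. For 5 genes whose levels are described below the loop is given with 5 bases on either side, the loop in capitals.
H2BC21: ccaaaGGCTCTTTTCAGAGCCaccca
H2AC18: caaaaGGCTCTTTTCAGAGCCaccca
H2BC4: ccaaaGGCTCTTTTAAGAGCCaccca
H4C15: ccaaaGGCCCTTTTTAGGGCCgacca
H3C6: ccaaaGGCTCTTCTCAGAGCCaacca
In the annotated transcripts the loop of H2AC18 is followed by 35 bases and that of H2BC21 by 1729 bases, and both transcripts hold AATAAA, the poly(A) signal, in their last 50 bases. H3C6 has a transcript that ends 5 bases past the loop and another that goes on for 1862 bases. The transcripts of H4C15 that hold the loop go on for 240, 690 and 1314 bases. H2BC4 and H2BC5 each have an annotated transcript with the loop and another without it.

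Promoter windows, 250 bases before to 50 after a RefSeq start, were available for 60 of the 65 genes. The motifs searched, on both strands, were the octamer ATTTGCAT, the CCAAT box and the TATA box TATAAA. Matches of different motifs overlapped 0 times in these windows. The octamer, which is bound by the factor OCT1, was found in 43.3% of the histone genes and in 2.19% of 27305 promoters. By class it was found in 82.4% of H2B and 73.3% of H2A genes, but in none of the 5 H1 and 12 H4 genes. The 1 match in an H3 gene (9.09% of them) lies in a window that RefSeq gives to both H3C4 and H2AC7, and the other H3C4 window held none. CCAAT was found in 85.0% of the histone genes against 39.7% of all promoters, and TATAAA in 70.0% against 14%. The windows of 4 H2B genes that rose are given below 5′ to 3′ on the gene's strand (RefSeq, GRCh38.p14), with matches on either strand in capitals. They are chr6:26123877-26124176 (minus strand) for H2BC4, chr1:149886633-149886932 (minus strand) for H2BC21, chr6:27146806-27147105 (minus strand) for H2BC12 and chr6:26157871-26158170 (plus strand) for H2BC5.
H2BC4: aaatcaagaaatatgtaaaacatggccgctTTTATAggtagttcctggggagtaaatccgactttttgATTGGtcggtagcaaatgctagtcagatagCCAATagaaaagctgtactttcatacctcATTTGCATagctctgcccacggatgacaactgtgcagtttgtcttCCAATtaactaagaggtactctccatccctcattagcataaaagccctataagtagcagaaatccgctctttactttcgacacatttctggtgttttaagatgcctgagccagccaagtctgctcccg
H2BC21: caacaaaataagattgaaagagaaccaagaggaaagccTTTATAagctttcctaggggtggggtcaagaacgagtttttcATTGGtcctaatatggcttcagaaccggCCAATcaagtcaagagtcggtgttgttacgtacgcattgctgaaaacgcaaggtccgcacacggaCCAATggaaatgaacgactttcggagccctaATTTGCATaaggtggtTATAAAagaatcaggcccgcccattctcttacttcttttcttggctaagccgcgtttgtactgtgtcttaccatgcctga
H2BC12: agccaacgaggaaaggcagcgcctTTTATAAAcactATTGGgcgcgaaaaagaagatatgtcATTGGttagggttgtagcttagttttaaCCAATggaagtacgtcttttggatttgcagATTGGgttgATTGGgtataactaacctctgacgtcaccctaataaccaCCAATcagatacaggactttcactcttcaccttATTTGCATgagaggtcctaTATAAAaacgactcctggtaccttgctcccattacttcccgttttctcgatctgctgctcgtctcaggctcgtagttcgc
H2BC5: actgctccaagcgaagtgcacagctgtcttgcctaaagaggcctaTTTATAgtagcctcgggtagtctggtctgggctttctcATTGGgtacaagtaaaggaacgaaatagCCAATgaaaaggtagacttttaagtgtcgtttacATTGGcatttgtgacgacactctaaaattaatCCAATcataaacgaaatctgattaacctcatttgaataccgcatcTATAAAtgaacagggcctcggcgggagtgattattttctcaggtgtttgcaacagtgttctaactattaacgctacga
The octamer began 46 bases before the start in H2BC21 and 49 bases before it in H2BC12, in both cases just upstream of a TATAAA. In H2BC4 it began 123 bases before the start, and the window of H2BC5 held CCAAT and TATAAA matches but no octamer match. Among tested H2B genes it was found in 7 of the 8 that rose after the knockdown in DMSO and in 6 of the 8 others. For tested H2A genes with a window these were 2 of the 4 that rose and 8 of the 10 others.

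In control cells with DMSO (siC_DMSO) histone RNA in these poly(A) libraries was low, and H2BC12, an H2B gene, led it. Per length, H2BC12 stood at 39.8 ± 4.21 FPKM (fragments per kilobase of transcript scaled to library depth, mean ± SD, n = 3), and H1-2, a linker histone gene, at 12.2 ± 2.86 FPKM. H2AC19 followed with 5.93 ± 1.18 FPKM, its near-identical copy H2AC18 with 5.74 ± 1.11 FPKM, H2AC6 with 5.47 ± 0.659 FPKM and H1-4 with 4.56 ± 3.25 FPKM, and these neighbours did not differ beyond their spread. After XMU-MP1 (siC_XMU) H2BC12 stood at 372 ± 53.8 FPKM, followed by H2BC5 at 40.7 ± 13.7, H1-2 at 40.1 ± 8.09, H2AC19 at 36.5 ± 12.8 and H2AC18 at 36.3 ± 12.6 FPKM, which did not differ beyond their spread. In siYT_DMSO the lead was shared. H2AC19 stood at 195 ± 134 FPKM, H2BC12 stood at 187 ± 69.1 FPKM, H2AC18 at 149 ± 58.4 FPKM, H2BC8 at 136 ± 88.3 FPKM and H2AC6 at 97.7 ± 44.7 FPKM, with overlapping spreads. In siYT_XMU H2BC12 stood at 351 ± 146 FPKM and H2BC8 at 229 ± 117 FPKM.

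Summed over the 65 genes, the level was 1654, 1718 and 1438 CPM in siYT_XMU, 625, 1443 and 957 CPM in siYT_DMSO, 627, 748 and 511 CPM in siC_XMU and 137, 91.7 and 96.1 CPM in siC_DMSO. All libraries of the 3 treated groups lay above all siC_DMSO libraries, and siYT_DMSO and siC_XMU overlapped. H2B genes gave the largest part in every group, with 1049.9 ± 107 CPM in siYT_XMU, 653 ± 254 CPM in siYT_DMSO, 437 ± 79.8 CPM in siC_XMU and 51.3 ± 2.02 CPM in siC_DMSO (mean ± SD, n = 3). The H2A sum was 357 ± 64.9, 264 ± 122, 68.6 ± 13.8 and 18.9 ± 6.72 CPM in the same order of groups. The H1, H3 and H4 sums were each at most 93.6 CPM in any library. H2BC12 alone held 48.3 to 51.8% of the histone counts in siC_XMU and 20.2 to 37.8% in siC_DMSO. These are levels in bulk RNA, in which fewer cells of a type and less RNA per cell cannot be told apart.

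**Figure D1:**
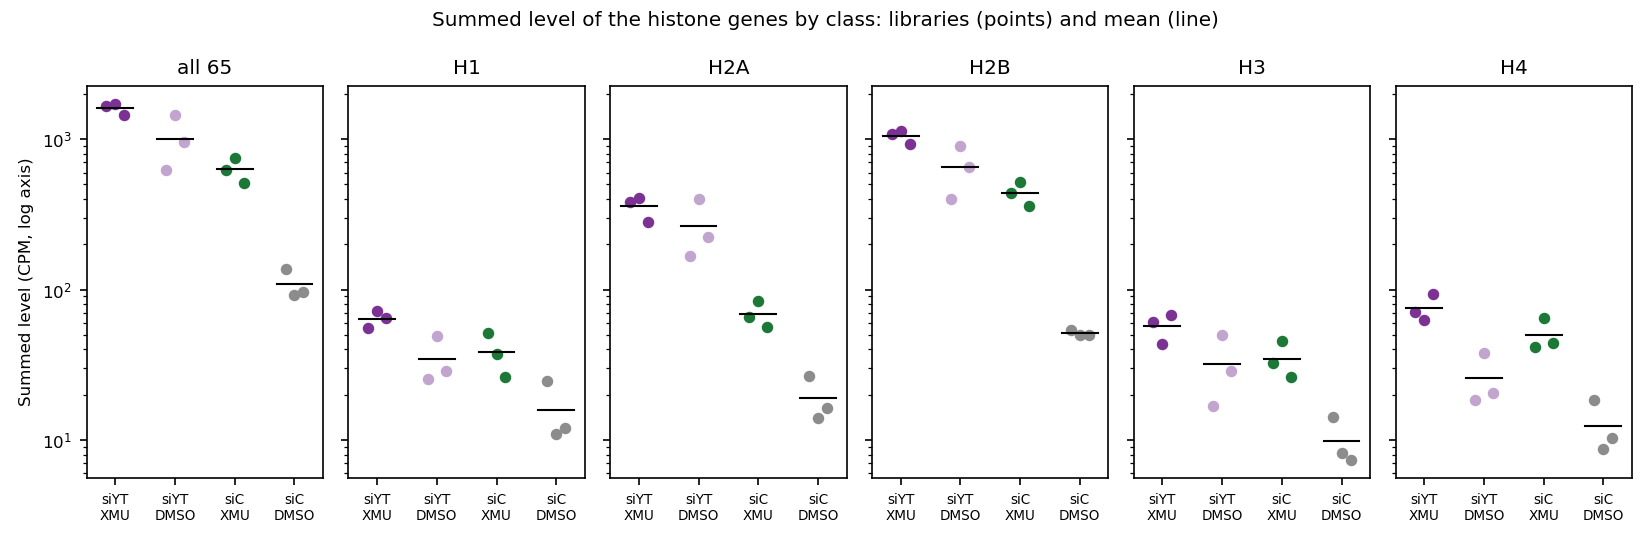
Summed level (CPM, log axis) of all 65 histone genes and of each class, by group, with 1 point per library and a line at the mean of 3. Every library of siYT_XMU, siYT_DMSO and siC_XMU lies above every siC_DMSO library in the H2A, H2B and all-gene panels.

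The knockdown of YAP and TAZ in DMSO was compared first, siYT_DMSO over siC_DMSO. Histone genes that rose were mostly H2B and H2A genes, with log2 fold changes of up to 5.89. Of the 61 tested genes 18 rose, which is 29.5%, against 16.1% of all 18143 tested genes, and 1 fell, which is 1.64% against 16.0% (32.1% of all genes in either direction; edgeR quasi-likelihood test, Benjamini-Hochberg adjusted p under 0.05). The median log2 fold change was 0.24 over the histone genes and 0.02 over all genes. By class, 8 of 16 H2B, 4 of 15 H2A, 3 of 13 H3, 2 of 12 H4 and 1 of 5 H1 genes rose. Without library c of siYT_XMU, which is in neither group but in the fit and its filter on low counts, 18 rose and 4 fell, against 18.2% and 18.8% of the 19211 genes then tested. The number that fell was 6 without library a of siYT_DMSO, 0 without library a of siC_DMSO and 5 with DESeq2. In either direction 39.3%, 27.9% and 39.3% of the histone genes were called in these runs, against 26.2%, 23.1% and 39.1% of all genes.

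Among H2B genes, H2BC4 (ID 8347, chromosome 6, 26113170 to 26123926, minus strand, coordinates as deposited, with GRCh38.p13 named in the submitters' processing notes) had 106, 207 and 166 CPM in siYT_DMSO, against 3.68, 3.26 and 3.00 CPM in siC_DMSO. The groups were far apart, and library b was the highest of the knockdown libraries (log2 fold change 5.59, SE 0.28, edgeR adjusted p = 7.64e-07). H2BC21 (ID 8349, chromosome 1, 149884459 to 149886682, minus strand) had 89.7, 236 and 161 CPM in siYT_DMSO, against 4.06, 1.63 and 2.53 CPM in siC_DMSO. It showed the largest rise of the 61 genes (log2 fold change 5.89, SE 0.45, edgeR adjusted p = 4.05e-06). H2BC8 (ID 8339, chromosome 6, 26216200 to 26216688, minus strand) had 37.3, 112 and 50.2 CPM in siYT_DMSO, against 2.07, 1.26 and 1.64 CPM in siC_DMSO (log2 fold change 5.33, SE 0.50, edgeR adjusted p = 1.42e-05). Library b was again the highest, and without it the log2 fold change was 4.72. H2BC5 (ID 3017, chromosome 6, 26158008 to 26171349, plus strand) had 40.7, 111 and 81.4 CPM in siYT_DMSO, against 2.22, 3.91 and 2.30 CPM in siC_DMSO (log2 fold change 4.79, SE 0.42, edgeR adjusted p = 9.66e-06). H2BC12 (ID 85236, chromosome 6, 27138293 to 27146858, minus strand), the gene with the highest baseline, had 109, 214 and 179 CPM in siYT_DMSO, against 27.8, 34.7 and 32.8 CPM in siC_DMSO. Its rise was smaller than those of the 4 genes before it (log2 fold change 2.40, SE 0.27, edgeR adjusted p = 4.58e-05).

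The other H2B genes that rose had lower levels. H2BC11 had 6.92, 15.2 and 11.7 CPM in siYT_DMSO, against 2.42, 1.33 and 1.68 CPM in siC_DMSO (log2 fold change 2.64, SE 0.40, edgeR adjusted p = 0.000395). H2BC7 had 1.71, 5.34 and 1.92 CPM in siYT_DMSO, against 0.903, 0.433 and 0.510 CPM in siC_DMSO (log2 fold change 2.28, SE 0.52, edgeR adjusted p = 0.00535). Library b carried much of this difference, and without it the log2 fold change was 1.55. H2BC6 had 0.667, 0.580 and 0.215 CPM in siYT_DMSO, against 0, 0.0510 and 0.110 CPM in siC_DMSO, where a count of 0 in library a allows up to 0.0459 CPM (log2 fold change 3.08, SE 0.83, edgeR adjusted p = 0.0141). Its call ended without library b of siC_DMSO (adjusted p = 0.0532), and the log2 fold change was 4.02 without library c of siC_DMSO.

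Of the H2A genes, H2AC6 (ID 8334, chromosome 6, 26124172 to 26124690, plus strand), which shares its start region with H2BC4, had 32.3, 73.3 and 47.8 CPM in siYT_DMSO, against 2.80, 2.65 and 2.23 CPM in siC_DMSO (log2 fold change 4.32, SE 0.35, edgeR adjusted p = 6.2e-06). H2AC8 had 10.8, 27.9 and 16.1 CPM in siYT_DMSO, against 3.19, 2.08 and 1.28 CPM in siC_DMSO (log2 fold change 3.07, SE 0.43, edgeR adjusted p = 0.000224). In both the groups did not overlap, and library b was the highest of the knockdown libraries. H2AC18 (ID 8337, chromosome 1, 149842218 to 149842750, minus strand) had 53.9, 108 and 78.6 CPM in siYT_DMSO, against 3.34, 2.56 and 2.37 CPM in siC_DMSO (log2 fold change 4.86, SE 0.40, edgeR adjusted p = 6.77e-06). H2AC19, its near-identical neighbour, had 54.2, 179.9 and 78.5 CPM in siYT_DMSO, against 3.46, 2.70 and 2.40 CPM in siC_DMSO (log2 fold change 5.19, SE 0.50, edgeR adjusted p = 1.84e-05). The counts of the pair differed by at most 5.5% in 11 libraries and by 1.66 times in library b of siYT_DMSO, so how reads were divided between them is uncertain, and the H2AC19 change was 4.53 without that library.

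H1-2, the linker histone H1.2 gene (ID 3006, chromosome 6, 26055740 to 26056470, minus strand), had 17.6, 43.8 and 27.0 CPM in siYT_DMSO, against 10.1, 7.23 and 6.69 CPM in siC_DMSO (log2 fold change 1.88, SE 0.35, edgeR adjusted p = 0.00141). H1-4, the only other H1 gene above 5 CPM in a group mean, had 5.92, 4.37 and 1.39 CPM in siYT_DMSO, against 5.80, 1.48 and 2.40 CPM in siC_DMSO. Those groups overlapped and the gene did not pass the test (log2 fold change 0.27, SE 0.70, edgeR adjusted p = 0.821).

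Among H3 genes, H3C4 had 3.63, 21.4 and 8.35 CPM in siYT_DMSO, against 1.27, 1.25 and 0.702 CPM in siC_DMSO (log2 fold change 3.38, SE 0.64, edgeR adjusted p = 0.00168). The table's H3C4 span contains H2AC7 on the same strand, so reads of both cannot be fully told apart, and without library b of siYT_DMSO the change was 2.48. H3C6 had 7.97, 23.2 and 16.5 CPM in siYT_DMSO, against 1.04, 2.60 and 1.14 CPM in siC_DMSO (log2 fold change 3.31, SE 0.49, edgeR adjusted p = 0.000318). H3C10 had 1.46, 1.47 and 1.29 CPM in siYT_DMSO, against 0.674, 0.548 and 0.647 CPM in siC_DMSO (log2 fold change 1.17, SE 0.40, edgeR adjusted p = 0.0418), and this call ended in 9 of the 12 fits with 1 library left out, that is, without any 1 library of siC_DMSO, siC_XMU or siYT_DMSO. H3C3 was the gene that fell. It had 0.167, 0.155 and 0.116 CPM in siYT_DMSO, against 2.57, 0.523 and 0.854 CPM in siC_DMSO (log2 fold change -3.17, SE 0.83, edgeR adjusted p = 0.0120). Library a of siC_DMSO was the highest, and without it the change was -2.24 and the adjusted p = 0.0771, while without library c of siYT_DMSO the adjusted p = 0.0511.

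Of the H4 genes, H4C15 had 4.63, 13.1 and 7.81 CPM in siYT_DMSO, against 3.58, 2.40 and 2.20 CPM in siC_DMSO (log2 fold change 1.65, SE 0.38, edgeR adjusted p = 0.00610). H4C8 had 3.38, 11.7 and 5.67 CPM in siYT_DMSO, against 1.78, 0.548 and 1.57 CPM in siC_DMSO (log2 fold change 2.41, SE 0.56, edgeR adjusted p = 0.00610). Library b was the highest for both, and without it the H4C8 change was 1.80. The 42 other genes did not pass. Among them H4C13 had 0 counts in all siYT_DMSO libraries, and the rest had log2 fold changes from -3.50 to 1.77.

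**Figure D2:**
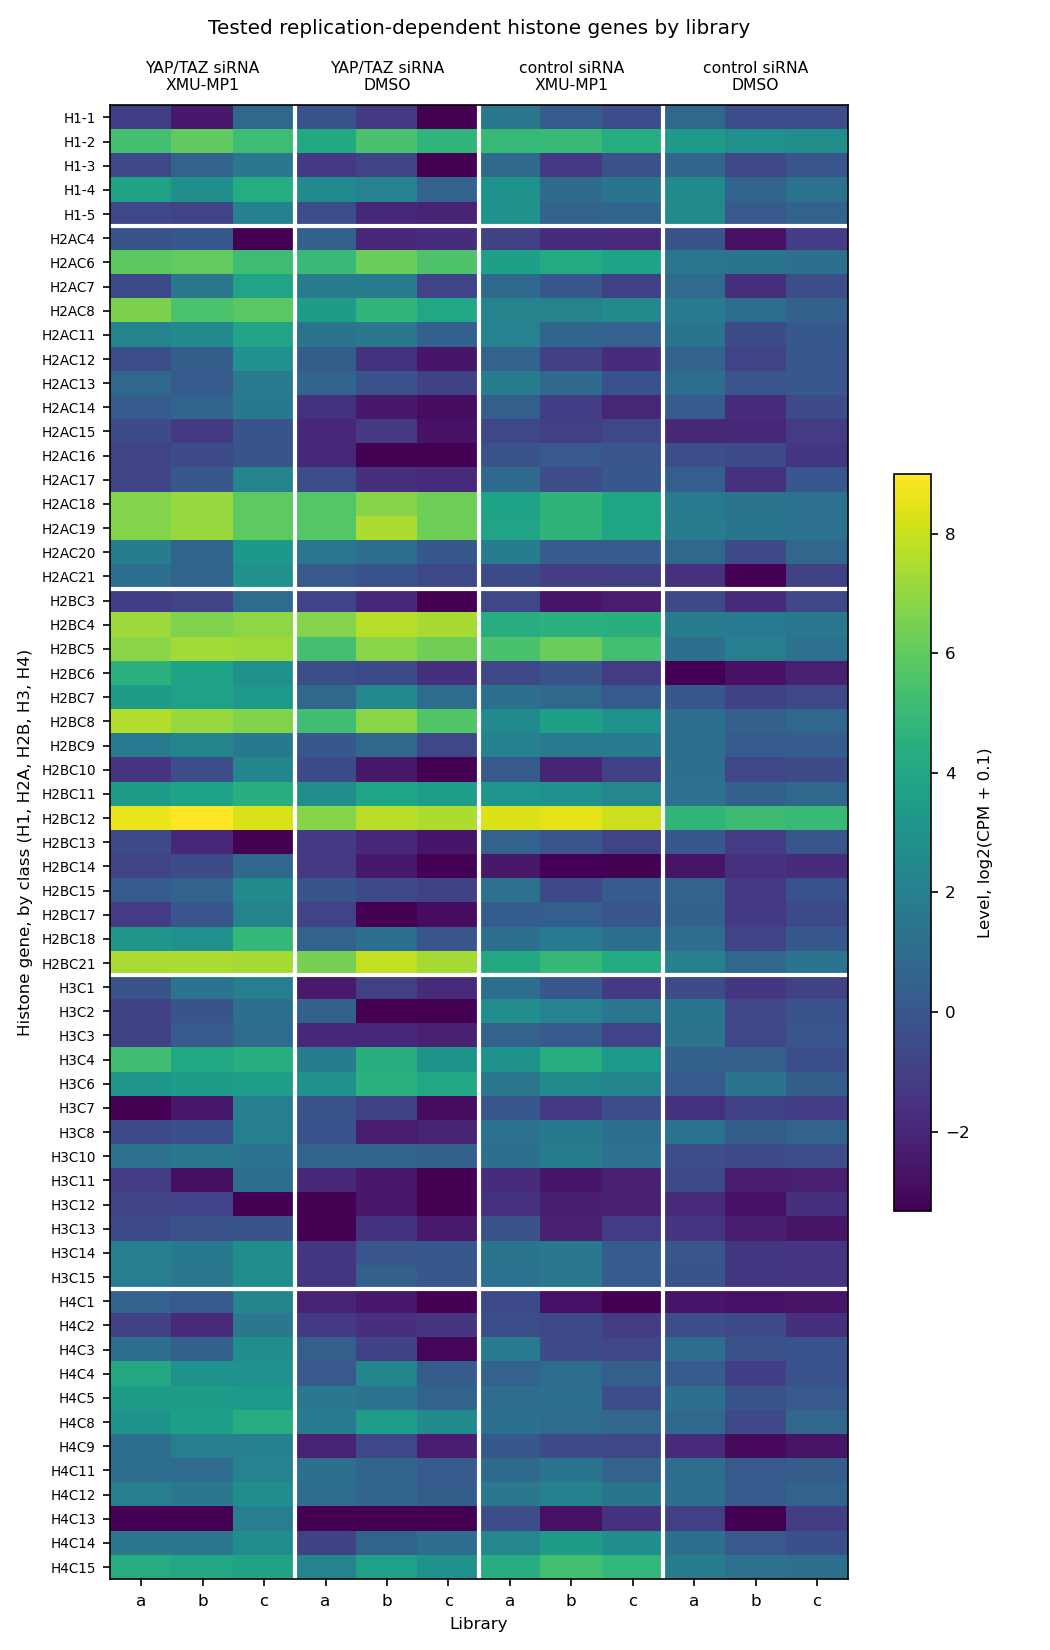
Heat map of the 61 tested histone genes (rows, by class) in the 12 libraries (columns, by group), colour showing log2(CPM + 0.1). H2BC12 is among the brightest rows in every group, and most rows outside a few H2A and H2B genes stay dark in siC_DMSO.

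XMU-MP1 in control siRNA, siC_XMU over siC_DMSO, compared the inhibitor with DMSO in cells where YAP and TAZ were not knocked down. The activity of MST1 and MST2 was not measured in these data. Histone genes rose and none was called lower. Of the 61 genes 15 rose, which is 24.6%, against 4.0% of all genes, and 0 fell, against 5.26% (9.26% in either direction; 0 at an unadjusted p under 0.05 too, and also 0 with DESeq2). The median log2 fold change was 0.96 over the histone genes and -0.02 over all genes. By class 7 of 16 H2B, 3 of 15 H2A, 2 of 13 H3, 2 of 12 H4 and 1 of 5 H1 genes rose. Leaving out library c of siYT_XMU gave 18, against 5.90% of all genes. This comparison shares its siC_DMSO libraries with the knockdown in DMSO, so its values stand beside those above and are no second test of them.

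H2BC5 showed the largest rise, with 43.7, 71.5 and 38.3 CPM in siC_XMU, against the siC_DMSO values above (log2 fold change 4.18, SE 0.41, edgeR adjusted p = 0.000259). H2BC12 had 325, 361 and 257 CPM in siC_XMU (log2 fold change 3.31, SE 0.28, edgeR adjusted p = 0.000201), all above its siYT_DMSO values. H2BC4 had 20.3, 23.6 and 21.2 CPM in siC_XMU (log2 fold change 2.71, SE 0.24, edgeR adjusted p = 0.000221). Its 3 libraries lay close together, all above siC_DMSO and all below siYT_DMSO. H2BC21 had 17.1, 29.4 and 18.9 CPM in siC_XMU (log2 fold change 2.99, SE 0.39, edgeR adjusted p = 0.00126), and H2BC8 had 5.77, 12.8 and 7.66 CPM (log2 fold change 2.40, SE 0.44, edgeR adjusted p = 0.00675). Both were likewise between siC_DMSO and siYT_DMSO with no overlap. H2BC11 had 8.68, 7.51 and 5.05 CPM (log2 fold change 1.97, SE 0.40, edgeR adjusted p = 0.0101), a call that ended without library b or c of siC_DMSO (adjusted p = 0.0554 and 0.051). H2BC6 had 0.541, 0.802 and 0.349 CPM (log2 fold change 3.31, SE 0.83, edgeR adjusted p = 0.0283). Its call ended without library a or b of siC_DMSO (0.0656 and 0.108) or of siC_XMU (0.0606 and 0.103), and without library c of siC_DMSO the log2 fold change was 4.26.

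H2AC6 had 12.4, 18.6 and 14.1 CPM in siC_XMU (log2 fold change 2.55, SE 0.33, edgeR adjusted p = 0.00105). H2AC18 had 14.2, 25.9 and 15.1 CPM (log2 fold change 2.74, SE 0.36, edgeR adjusted p = 0.00137) and its copy H2AC19 14.4, 26.2 and 15.2 CPM (log2 fold change 2.70, SE 0.45, edgeR adjusted p = 0.00432). H1-2 had 30.9, 32.3 and 20.6 CPM (log2 fold change 1.80, SE 0.35, edgeR adjusted p = 0.00810). All 4 were higher in every siC_XMU library than in any siC_DMSO library. H3C4 had 7.62, 20.4 and 10.1 CPM (log2 fold change 3.56, SE 0.64, edgeR adjusted p = 0.00643) and H3C10 2.20, 3.61 and 2.43 CPM (log2 fold change 2.14, SE 0.41, edgeR adjusted p = 0.00791), and the H3C10 call ended without library b of siC_DMSO (0.0549) or of siC_XMU (0.0569). The H4 gene H4C15 had 20.1, 38.8 and 28.1 CPM in siC_XMU (log2 fold change 3.41, SE 0.41, edgeR adjusted p = 0.000808), and all 3 of these values lay above its siYT_DMSO values. H4C14 had 5.05, 10.8 and 6.98 CPM in siC_XMU, against 2.25, 0.994 and 0.702 CPM in siC_DMSO (log2 fold change 2.53, SE 0.65, edgeR adjusted p = 0.0306). That call ended without library b or c of siC_DMSO (0.127 and 0.125) and without any 1 library of siC_XMU (0.0505 to 0.127), and the change was 3.16 without library a of siC_DMSO. H2AC8, which rose after the knockdown, had 4.51, 4.43 and 5.40 CPM in siC_XMU, a difference that did not pass (log2 fold change 1.13, SE 0.41, edgeR adjusted p = 0.111). H3C6 with 2.87, 5.75 and 4.72 CPM (log2 fold change 1.48, SE 0.46, edgeR adjusted p = 0.0690) and H4C8 with 2.22, 1.97 and 1.56 CPM (log2 fold change 0.56, SE 0.54, edgeR adjusted p = 0.613) did not pass either. Whether they respond differently to the 2 treatments was not tested.

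XMU-MP1 after the knockdown, siYT_XMU over siYT_DMSO, gave calls mostly in genes with few counts. Of the 61 genes 14 rose, which is 23.0%, against 4.19% of all genes, and 0 fell, against 7.92% (12.1% in either direction; 0 at an unadjusted p under 0.05, and 0 with DESeq2). The median log2 fold change was 1.87 over the histone genes and 0.02 over all genes, and 1.12 over the histone genes without library c of siYT_XMU. This count depended on single libraries and on the model. It was 3 without library c of siYT_DMSO, which is 4.92% of the histone genes against 6.03% of all genes called in either direction. It was 8 without library b of siC_XMU (13.1% against 9.03%) and 9 without library b or c of siC_DMSO (14.8% against 8.70% and 9.06%) or library b of siYT_XMU (14.8% against 11.0%). It was 10 without library c of siYT_XMU, which is 16.4% against 6.65% of all genes called higher. With only the compared groups in the fit it was 5, which is 8.77% against 5.41% in either direction, and with DESeq2 28, which is 45.9% against 20.0%. The genes H2BC6, H2BC12 and H2BC18 kept their call whichever 1 library was left out.

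H2BC12 had 396, 512 and 306 CPM in siYT_XMU, against 109, 214 and 179 CPM in siYT_DMSO, with no overlap (log2 fold change 1.27, SE 0.26, edgeR adjusted p = 0.00816). H2BC6 had 23.7, 14 and 7.25 CPM in siYT_XMU, against 0.667, 0.580 and 0.215 CPM in siYT_DMSO (log2 fold change 4.97, SE 0.82, edgeR adjusted p = 0.00276). It was the largest of the called rises, and its siYT_XMU level was highest in library a and lowest in library c. H2BC18 had 9.19, 7.31 and 29.2 CPM in siYT_XMU, against 1.38, 2.07 and 0.877 CPM in siYT_DMSO (log2 fold change 3.38, SE 0.67, edgeR adjusted p = 0.00725). Here library c was the highest, and without it the log2 fold change was 2.51.

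Among the 11 other genes the calls were less stable. H2AC8 had 95.8, 46.0 and 58.4 CPM in siYT_XMU, against 10.8, 27.9 and 16.1 CPM in siYT_DMSO (log2 fold change 1.87, SE 0.41, edgeR adjusted p = 0.0123), and the call ended without library c of siYT_DMSO (0.0589). H2BC7 had 11.3, 13 and 9.94 CPM in siYT_XMU (log2 fold change 1.93, SE 0.51, edgeR adjusted p = 0.0299). Its call ended without library a or c of siYT_DMSO (0.0956 and 0.125) or library a or b of siYT_XMU (0.0596 and 0.0693), and the change was 2.65 without library b of siYT_DMSO. H4C5 had 10.8, 11.1 and 9.74 CPM in siYT_XMU, against 3.00, 2.49 and 1.42 CPM in siYT_DMSO (log2 fold change 2.20, SE 0.54, edgeR adjusted p = 0.0214), a call that depended on library b (0.0684 without it) and library c (0.0962) of siYT_DMSO. H4C9 lies within the H2BC12 span on the opposite strand. It had 2.05, 3.81 and 4.14 CPM in siYT_XMU, against 0.125, 0.541 and 0.0993 CPM in siYT_DMSO (log2 fold change 3.66, SE 0.88, edgeR adjusted p = 0.0191), the call ending without library a or c of siYT_DMSO (0.0648 and 0.0805) and the change being 4.87 without its library b. H3C14 had 3.82, 3.04 and 7.04 CPM in siYT_XMU, against 0.292, 0.851 and 0.960 CPM in siYT_DMSO (log2 fold change 2.68, SE 0.68, edgeR adjusted p = 0.0253), a call that ended without any 1 library of siYT_DMSO (0.0643 to 0.0763). Its copy H3C15 had 3.76, 2.94 and 7.04 CPM in siYT_XMU, against 0.292, 1.30 and 0.926 CPM in siYT_DMSO (log2 fold change 2.41, SE 0.70, edgeR adjusted p = 0.0435), and this call ended in 10 of the 12 fits with 1 library left out. In all of these the siYT_XMU libraries lay above the siYT_DMSO libraries.

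The remaining 5 called genes lost their call in 6 to 10 of the 12 fits with 1 library left out. H4C4 had 17.2, 8.02 and 7.46 CPM in siYT_XMU, against 1.0, 4.89 and 1.09 CPM in siYT_DMSO (2.22, SE 0.66, edgeR adjusted p = 0.0469), and the change was 3.37 without library b of siYT_DMSO. H2BC9 had 3.40, 4.64 and 3.11 CPM in siYT_XMU, against 0.959, 1.64 and 0.546 CPM in siYT_DMSO (1.83, SE 0.49, edgeR adjusted p = 0.0314). H3C1 had 0.822, 2.46 and 3.73 CPM in siYT_XMU, against 0.0834, 0.406 and 0.182 CPM in siYT_DMSO (3.30, SE 0.90, edgeR adjusted p = 0.0341), with a change of 4.01 without library b of siYT_DMSO. In these 3 genes every siYT_XMU library lay above every siYT_DMSO library. H3C3 had 0.440, 1.06 and 1.86 CPM in siYT_XMU, against 0.167, 0.155 and 0.116 CPM in siYT_DMSO (2.87, SE 0.84, edgeR adjusted p = 0.0462), and H2AC14 had 1.06, 1.55 and 3.11 CPM, against 0.250, 0.0773 and 0.0331 CPM (4.04, SE 1.10, edgeR adjusted p = 0.0337), with a change of 5.01 without library a of siYT_DMSO. In H3C1, H3C3 and H2AC14 library c of siYT_XMU was the highest, and without it the adjusted p was 0.0585, 0.0739 and 0.0552. The level of RNAs without a poly(A) tail moved with that library, and its part in these values was not tested.

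In several genes that had risen after the knockdown XMU-MP1 had a smaller effect than in control siRNA, and this difference was tested as an interaction. The interaction is the log2 fold change for XMU-MP1 after YAP/TAZ siRNA minus the one after control siRNA. Of the 61 genes 8 had a negative interaction, which is 13.1%, against 1.73% of all genes, and 0 a positive one, against 0.860% (2.59% in either direction; 5 at an unadjusted p under 0.05, and 2 with DESeq2, which called 9 negative). The 8 genes were H2BC4, H2BC5, H2BC12, H2BC21, H2AC6, H2AC18, H2AC19 and H4C15. The median interaction over the 61 genes was 0.74, against 0.07 over all genes, and 0.30 without library c of siYT_XMU.

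H2BC4 had 147, 99.0 and 122 CPM in siYT_XMU, overlapping siYT_DMSO, and the XMU-MP1 effect was -0.38 after the knockdown and 2.71 in control siRNA (interaction -3.09, SE 0.33, edgeR adjusted p = 0.00389). H2BC5 had 115, 156 and 146 CPM in siYT_XMU, with effects of 0.84 and 4.18 in the same order (interaction -3.35, SE 0.52, edgeR adjusted p = 0.0108). These 2 calls held whichever 1 library was left out. H2BC21 had 172, 176 and 164 CPM in siYT_XMU (interaction -2.92, SE 0.52, edgeR adjusted p = 0.0202) and H2AC6 60.1, 64.8 and 36.0 CPM (interaction -2.48, SE 0.44, edgeR adjusted p = 0.0199). For both all siYT_XMU values lay within the range of siYT_DMSO. H2AC18 had 105, 138 and 60.5 CPM (interaction -2.40, SE 0.49, edgeR adjusted p = 0.0289) and H2AC19 106, 138 and 61.3 CPM (interaction -2.73, SE 0.61, edgeR adjusted p = 0.0387). H2BC12 differed in that it rose in both arms, by 1.27 after the knockdown and by 3.31 in control siRNA (interaction -2.03, SE 0.36, edgeR adjusted p = 0.0199). H4C15 had 20.0, 16.9 and 13.7 CPM in siYT_XMU and did not pass the test for XMU-MP1 there (log2 fold change 0.99, interaction -2.42, SE 0.54, edgeR adjusted p = 0.0383). The number of genes called ranged from 2 to 9 with 1 library left out. It was 2 without library b or c of siC_DMSO, b of siC_XMU or b of siYT_DMSO, 3 without c of siYT_DMSO, and 4 without a of siC_DMSO or c of siC_XMU. These counts are 3.28%, 4.92% and 6.56% of the histone genes, where at most 0.810% of all genes were called in either direction. In these fits the values kept their sign, H2BC21 ranging from -3.32 to -2.55, H2AC6 from -2.72 to -2.13 and H2BC12 from -2.27 to -1.82, and the interaction of H2AC19 was -2.09 without library b of siYT_DMSO. Leaving out library c of siYT_XMU gave 8, against 3.16% of all genes with a negative interaction.

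**Figure D3:**
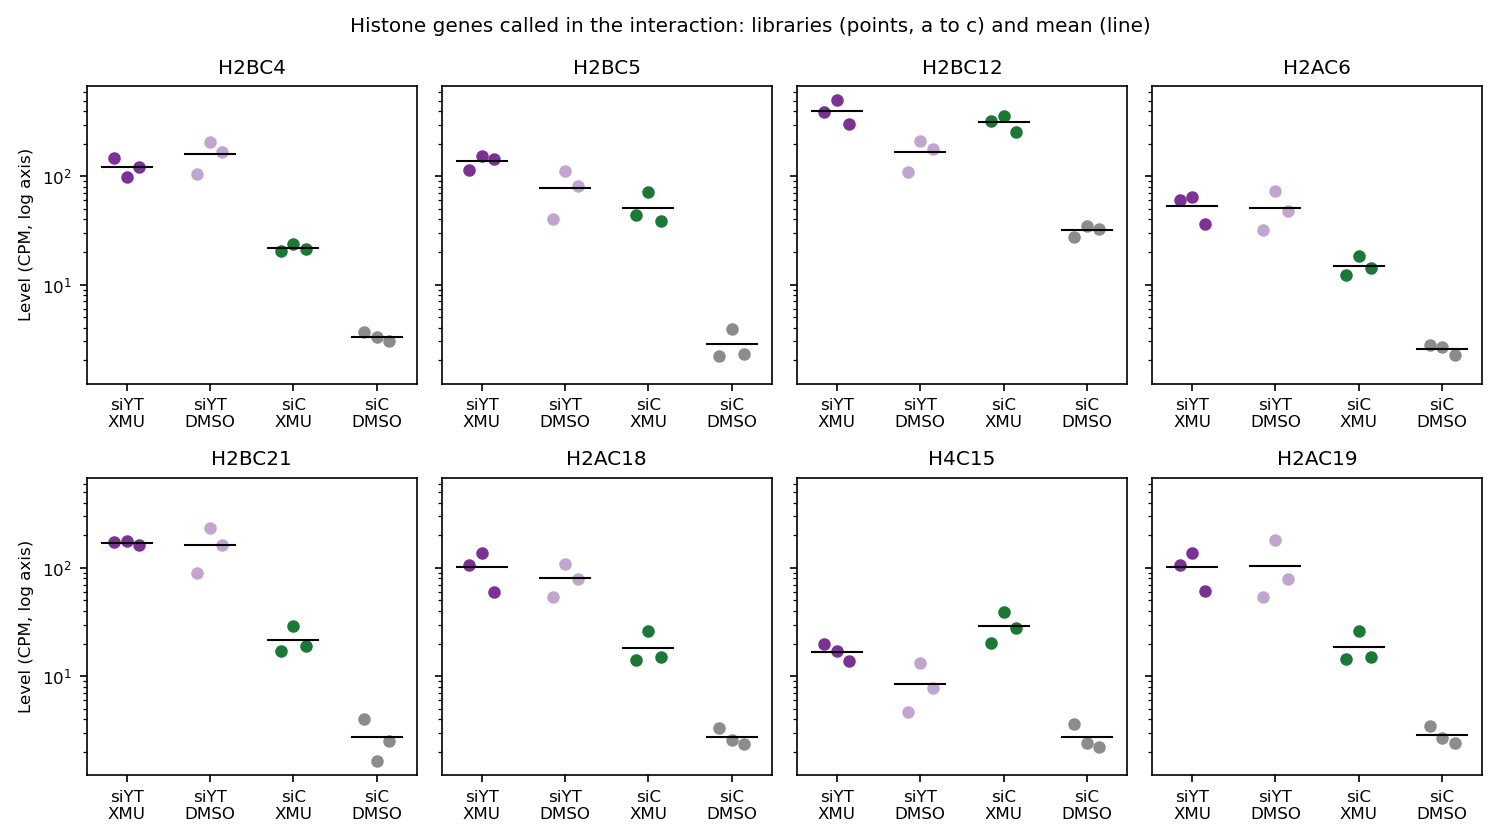
Level (CPM, log axis) of the 8 histone genes with a called interaction, 1 point per library in the order a to c and a line at the mean of 3. In all 8 panels siC_XMU lies above siC_DMSO, with a smaller gap between siYT_XMU and siYT_DMSO.

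The knockdown under XMU-MP1, siYT_XMU over siC_XMU, was the fourth comparison. Of the 61 genes 18 rose, which is 29.5%, against 17.7% of all genes, and 0 fell, against 18.6% (36.4% in either direction; 0 at an unadjusted p under 0.05, and 0 with DESeq2). The median log2 fold change was 1.14 over the histone genes and 0.04 over all genes, and 0.64 over the histone genes without library c of siYT_XMU. H2BC8 (log2 fold change 4.04, SE 0.46, edgeR adjusted p = 5.91e-05) and H2AC8 (log2 fold change 3.80, SE 0.44, edgeR adjusted p = 6.54e-05), which share a start region, both rose. H2BC8 had 193, 136 and 102 CPM in siYT_XMU, against 5.77, 12.8 and 7.66 CPM in siC_XMU, and every siYT_XMU library lay above every siC_XMU library. H2BC6 rose by 4.74, H2BC21 by 2.97, H2BC7 by 2.81, H2BC4 by 2.5, H2AC18 by 2.46 and H2AC19 by 2.46, H2AC6 by 1.84 and H2BC5 by 1.44. The H4 genes H4C4, H4C5 and H4C8 rose by 2.85, 2.67 and 2.83. H4C8 had 8.10, 12.5 and 20.7 CPM in siYT_XMU, H4C4 had 1.38, 1.93 and 1.24 CPM and H4C5 2.04, 2.27 and 0.652 CPM in siC_XMU. All of these calls remained with any 1 library left out.

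Without library c of siYT_XMU 14 genes rose, which is 23.0% against 19.3% of all genes, a share near that of all genes. The 4 that lost their call were H2AC21, H2BC11, H2BC14 and H3C6. H2AC21 had 2.14, 1.49 and 7.46 CPM in siYT_XMU, against 0.581, 0.366 and 0.364 CPM in siC_XMU (log2 fold change 3.03, SE 1.10, edgeR adjusted p = 0.0493). Without library c the change was 2.04 (adjusted p = 0.164). H2BC14 had 0.470, 0.638 and 1.66 CPM in siYT_XMU, against 0.0802, 0 and 0 CPM in siC_XMU, where a count of 0 allows up to 0.0523 CPM in b and 0.0455 CPM in c (log2 fold change 4.99, SE 1.76, edgeR adjusted p = 0.0440). Without library c of siYT_XMU the change was 4.32 (adjusted p = 0.0897). It also moved to 8.56 without library a and 4.40 without library c of siC_XMU. H2BC11 had 11.0, 14.1 and 22.0 CPM in siYT_XMU (1.13, SE 0.39, edgeR adjusted p = 0.0375) and H3C6 9.24, 11.3 and 11.8 CPM (1.27, SE 0.46, edgeR adjusted p = 0.0475). Their adjusted p was 0.115 and 0.0846 without library c. The 4 calls also ended in 6 to 9 other such fits each. H2BC18 had 2.26, 3.12 and 2.23 CPM in siC_XMU and rose by 2.56, or by 1.69 without library c. Of 12 tested RNAs known to lack a poly(A) tail 10 rose in this comparison, with a median of 4.75, against a median of 1.58 and no edgeR call without library c. Among genes that rose with either treatment alone, H2BC12 (0.37), H3C4 (0.99), H1-2 (0.74) and H4C15 (-0.78) did not pass, with adjusted p = 0.287, 0.207, 0.110 and 0.127.

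The genes were also described by the length of their annotated transcripts or spans, a split chosen after the values were seen. In 23 genes, all tested, a GENCODE v29 transcript or the table's span exceeds 1000 bases, and in the other 42 genes, 38 of them tested, neither does. A transcript exceeds it in 19 of the 23. H2BC4, H2BC5, H2BC12 and H3C4 count as longer by span only, with longest annotated transcripts of 659, 789, 381 and 411 bases. All of these rose in both comparisons against siC_DMSO. Annotated transcripts of compact genes may also be incomplete, so the split is not one of measured transcript length. Most of the tested genes with a mean below 5 CPM in every group and no call, named below, are compact. A call is less likely with few counts, so length and level cannot be told apart in these shares. After the knockdown in DMSO 13 of the 23 longer genes (56.5%) and 5 of the 38 compact genes (13.2%) rose, against 16.1% of all genes, with median log2 fold changes of 1.65 and -0.64. With XMU-MP1 in control siRNA 11 of 23 (47.8%) and 4 of 38 (10.5%) rose, against 4.0% of all genes, with medians of 2.22 and 0.50. With XMU-MP1 after the knockdown 9 of 23 (39.1%) and 5 of 38 (13.2%) rose, against 4.19% of all genes, with medians of 1.58 and 2.16. Without library c of siYT_XMU 8 of the longer genes (34.8%, median 1.17) and 2 of the compact genes (5.26%, median 1.11) rose there, against 6.65% of all genes. In the knockdown under XMU-MP1 11 of 23 (47.8%) and 7 of 38 (18.4%) rose, against 17.7% of all genes. Without that library 10 (43.5%) and 4 (10.5%) rose, against 19.3%, the compact median being 1.11 with the library and 0.44 without it. The compact genes that rose in any of the 4 comparisons without library c of siYT_XMU were H1-2, H2AC8, H2AC18, H2AC19, H2BC11 and H4C4. Of 6 genes listed as known makers of polyadenylated mRNA (H1-2, H2AC6, H2BC4, H2BC5, H2BC12 and H2BC21), 6 rose after the knockdown in DMSO and 6 with XMU-MP1 in control siRNA. Of the same 6 genes 4 rose in the knockdown under XMU-MP1 and 1 with XMU-MP1 after the knockdown, and 5 had a negative interaction. The shares of all genes were 16.1%, 4.0%, 17.7%, 4.19% and 1.73% in that order. This list was chosen with earlier results of these data known, so its counts are no independent test.

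**Figure D4:**
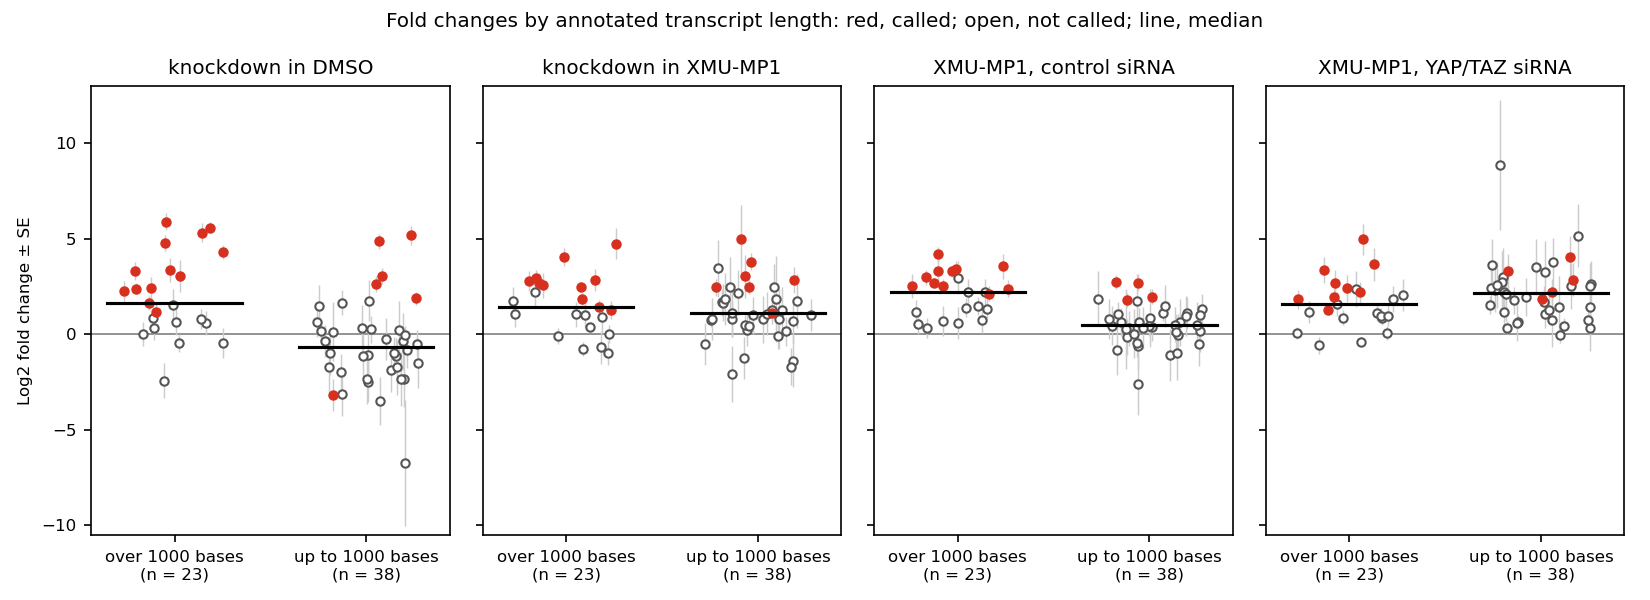
Log2 fold change with its SE of the 61 tested genes in the 4 comparisons, split by whether a GENCODE transcript or the gene's span exceeds 1000 bases. Red points passed the test, and the black line is the median. In both comparisons against siC_DMSO the median of the longer genes (1.65 and 2.22) lies above that of the compact genes (-0.64 and 0.50).

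Many H2A and H2B genes lie head to head, with starts 194 to 248 bases apart, and share the region between them. For H2BC4 and H2AC6, 246 bases apart, both genes rose after the knockdown in DMSO (5.59 and 4.32) and with XMU-MP1 in control siRNA (2.71 and 2.55). For H2BC8 and H2AC8, 233 bases apart, both rose after the knockdown (5.33 and 3.07). In other pairs only the H2B gene passed. H2BC21 rose by 5.89 and its partner H2AC20 had 0.63 (adjusted p = 0.579). H2BC12 rose by 2.40 and its partner H2AC12 had -1.0 (0.558). H2BC11 rose by 2.64, while H2AC11, with 2.54, 2.84 and 1.32 CPM in siYT_DMSO and 2.71, 0.599 and 0.937 CPM in siC_DMSO, did not pass (0.66, 0.515). H2AC7, opposite H2BC7, was at 3.55, 3.67 and 0.463 CPM in siYT_DMSO and 1.88, 0.217 and 0.675 CPM in siC_DMSO, but the gene did not pass (1.46, 0.365). A difference between the partners of a pair was not tested.

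A further 27 tested genes had a mean below 5 CPM in every group and no call. In H1 they were H1-1, H1-3 and H1-5, and in H2A they were H2AC4, H2AC12, H2AC13, H2AC15, H2AC16, H2AC17 and H2AC20. In H2B they were H2BC3, H2BC10, H2BC13, H2BC15 and H2BC17, in H3 they were H3C2, H3C7, H3C8, H3C11, H3C12 and H3C13, and in H4 they were H4C1, H4C2, H4C3, H4C11, H4C12 and H4C13. H2AC20 (4.89 ± 4.16 CPM in siYT_XMU) and H3C2 (4.54 ± 1.87 CPM in siC_XMU) came nearest to 5 CPM, with H4C12 at 4.53 ± 2.04 CPM in siYT_XMU. H1-4, H2AC7 and H2AC11 had no call either. H1-4 had 13.7, 7.02 and 19.5 CPM in siYT_XMU and 8.06, 1.83 and 2.59 CPM in siC_XMU. H2AC7 had 0.587, 2.84 and 14.7 CPM in siYT_XMU and 1.78, 0.924 and 0.410 CPM in siC_XMU, and H2AC11 had 4.61, 5.45 and 14.5 CPM and 4.25, 1.52 and 1.38 CPM. All 3 were highest in library c of siYT_XMU.

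Genes of DNA replication fell after the knockdown. Of 31 tested replication genes 30 fell in DMSO, with a median log2 fold change of -3.74, and 30 fell under XMU-MP1. PCNA, the sliding clamp, had 14.7 ± 0.404 CPM in siYT_DMSO, against 159.5 ± 5.07 CPM in siC_DMSO (log2 fold change -3.44, SE 0.23, edgeR adjusted p = 1.89e-06). MKI67, the proliferation marker Ki-67, had 28.9 ± 26.3 CPM in siYT_DMSO, against 474 ± 17.8 CPM in siC_DMSO (-4.04, adjusted p = 0.000468). With XMU-MP1 in control siRNA 1 replication gene rose and 1 fell. These were PCNA (0.85) and MCM3, a helicase subunit (-1.29). With XMU-MP1 after the knockdown 4 replication genes rose, PCNA (1.48), CCNE2 (3.81), CDC6 (1.35) and CDK1 (1.48), and without library c of siYT_XMU 5 rose. All 6 tested markers of differentiated keratinocytes rose in both knockdown comparisons, with summed levels of 3447 to 5056 CPM in siYT_XMU, 2098 to 3354 CPM in siYT_DMSO, 23.4 to 38.2 CPM in siC_XMU and 32.9 to 35.4 CPM in siC_DMSO. In each siC_XMU and siC_DMSO library 1 or 2 of the 6 were at 0 counts, and their part in the histone values was not tested.

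Genes for proteins that process histone mRNA, turn it over or switch on histone genes were read from a list of their own. Of 40 tested genes 1 rose and 12 fell after the knockdown in DMSO, with a median of -0.38. SLBP, which binds the stem-loop, had 26.8 ± 6.05 CPM in siYT_DMSO, against 80.0 ± 5.06 CPM in siC_DMSO (log2 fold change -1.58, SE 0.25, edgeR adjusted p = 0.000469), and fell by 1.26 under XMU-MP1 (adjusted p = 0.00199). TUT7, a uridylyl transferase that acts on histone mRNA tails, was the gene that rose (2.71, 1.62e-05). SYMPK, a scaffold of the cleavage machinery (-0.79), and YARS1, a tRNA synthetase (-1.01), fell. NPAT, the coactivator of histone genes in S phase, did not pass (-0.59, 0.295), nor did CASP8AP2 (2.19, 0.415). In the knockdown under XMU-MP1 2 of the 40 rose and 17 fell, among them the cleavage factor gene CSTF1 (-1.83) and LSM11 of the U7 particle (-1.47). With XMU-MP1 in control siRNA 2 rose and 1 fell, HINFP, which binds H4 promoters (0.84), UPF1 (0.87) and CPSF2 (-0.60). With XMU-MP1 after the knockdown 1 rose and 7 fell, including LSM11 (-1.41) and TUT7 (-1.36). Without library c of siYT_XMU those counts were 5 and 6, and the knockdown in DMSO had 3 and 17. Of all genes 16.1% rose and 16.0% fell after the knockdown in DMSO, and 17.7% and 18.6% under XMU-MP1. With XMU-MP1 4.0% rose and 5.26% fell in control siRNA, and 4.19% and 7.92% after the knockdown. The list's counts for XMU-MP1 in control siRNA are near those shares. These shares also belong beside the counts of the replication, chaperone and variant lists.

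Of 27 tested histone chaperone genes, whose products carry histones to and from DNA, 16 fell and 3 rose after the knockdown in DMSO (median -1.11), and 19 fell under XMU-MP1. NASP (-2.70), ASF1B (-4.51), ANP32E (-1.85) and the chromatin assembly subunit CHAF1B (-3.77, SE 0.31, edgeR adjusted p = 7.37e-06) were the 4 with the smallest adjusted p in DMSO. With XMU-MP1 in control siRNA 3 rose. These were UBN1 (1.04), SPTY2D1 (0.92) and ASF1A (0.73). Leaving out library c of siYT_XMU gave 5 that rose and 1 that fell.

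Of 13 tested genes for histone variants, many of which are not confined to S phase and have ordinary poly(A) tails, 5 rose and 4 fell after the knockdown in DMSO. H3-3A, an H3.3 gene, had 224 ± 29.5 CPM in siYT_DMSO, against 92.9 ± 2.60 CPM in siC_DMSO (log2 fold change 1.27, SE 0.19, edgeR adjusted p = 0.000293). H2AZ1 (-2.61), H2AZ2 (-1.47), the centromeric CENPA (-5.09) and the repair variant H2AX (-1.36) fell. With XMU-MP1 in control siRNA 7 of the 13 rose, and without library c of siYT_XMU 10 rose. H2AX had 604 ± 68.4 CPM in siC_XMU, against 152 ± 5.13 CPM in siC_DMSO (log2 fold change 1.99, SE 0.26, edgeR adjusted p = 0.00126). H3-3B, which did not pass after the knockdown (0.03, 0.937), rose by 1.21 and H1-10 by 1.94. With XMU-MP1 after the knockdown 4 rose, among them H2AX (1.67), H3-3B (0.88) and H3-3A (0.65), and without library c 6 rose.

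**Figure D5:**
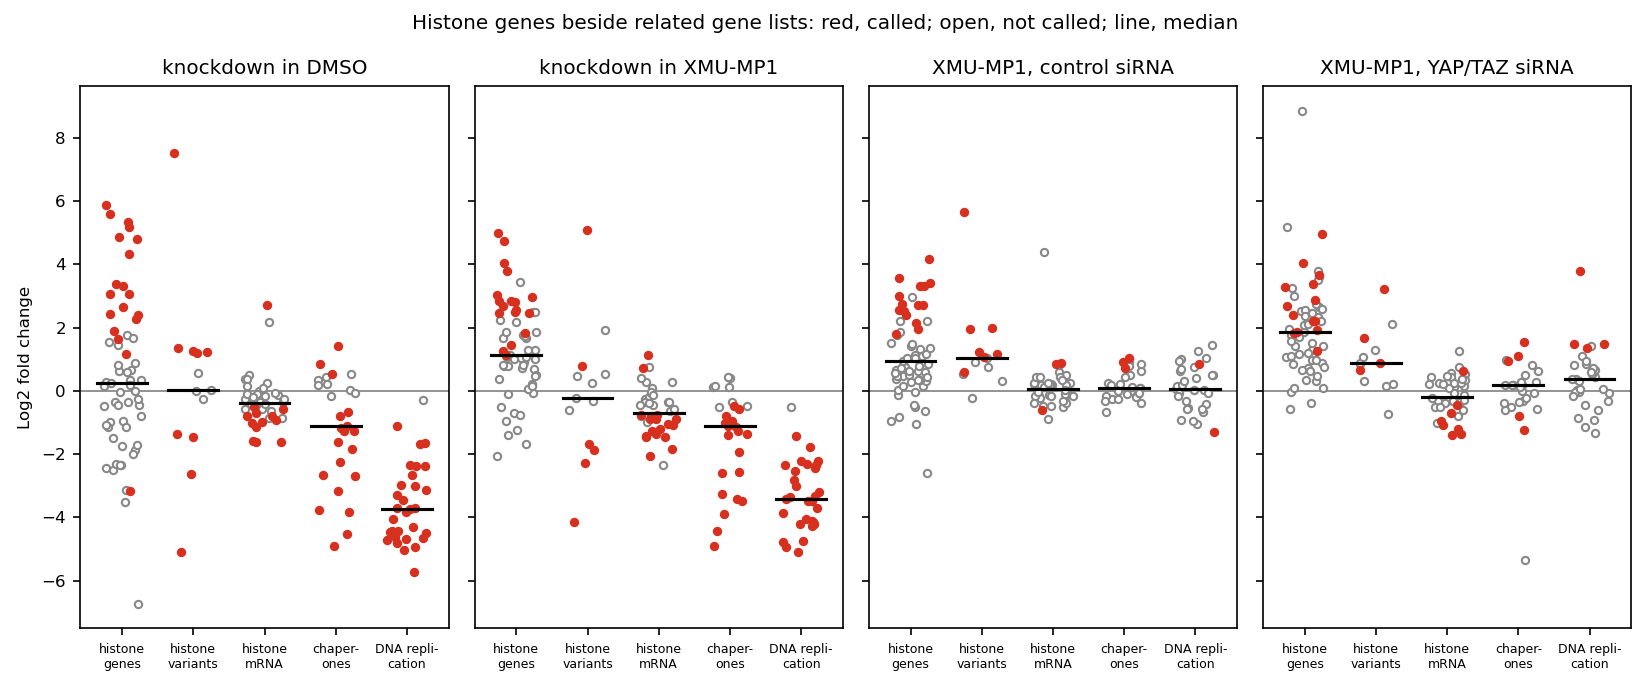
Log2 fold changes of the tested histone genes beside those of histone variants, histone mRNA factors, chaperones and DNA replication genes in the 4 comparisons. Red points passed the test, and the black line is the list's median. In the knockdown in DMSO the replication genes have a median of -3.74 and the histone genes one of 0.24.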

How the data were processed

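Poly(A) RNA of 12 MCF10A libraries was read in stranded, paired-end form, per the labels' protocols. The submitters' processing notes name cutadapt, FastQC, HISAT2, StringTie, edgeR and GRCh38.p13, without roles or settings. The authors' deposited table gives counts and FPKM per gene for 46931 genes. How reads were counted by strand is not given in the sources used here, so genes that overlap on opposite strands (H2BC12 and H4C9), share a span (H3C4 and H2AC7) or are near copies (H2AC18 and H2AC19, H3C14 and H3C15) are uncertain. H4C14 and H4C15 hold the same loop with the same flanking bases, and each has an annotated transcript of 610 bases. How reads were divided between them is not given either.

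Counts of genes kept by filterByExpr (18143) were TMM-scaled and tested with edgeR 4.0.16 by quasi-likelihood, with 4 group means over all 12 libraries. Tests were two-sided, p-values were adjusted by Benjamini-Hochberg over all tested genes, and a gene was called at an adjusted p under 0.05. The SE was taken as log2 fold change over √F. The deposited FPKM were used for levels between genes and for alternative fits. A count of 0 was read as up to 3 counts, for counting error only. The test was checked on simulated counts.

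Genes were named in full where the mean reached 5 CPM in a group or a comparison was called, and from other lists by smallest adjusted p. The members and lists were chosen with earlier results of these data known. Libraries were not paired by their letters in the main fit. Alternatives were other scalings, filters, tools, a letter block, and leaving out each library or the copies H2AC19 and H3C15, the last chosen after seeing the data. Promoters are from RefSeq and transcripts from GENCODE v29 as annotated in the reference given.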

Additional observations from a re-analysis of the deposited data

Results flagged for a closer look

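In 8 histone genes the XMU-MP1 effect differed between the knockdown and the control arm by a test of the difference itself (edgeR interaction, adjusted over all genes, effect after the knockdown minus effect in control siRNA). The interaction was -3.35 for H2BC5, -3.09 for H2BC4, -2.92 for H2BC21, -2.73 for H2AC19, -2.48 for H2AC6, -2.42 for H4C15, -2.40 for H2AC18 and -2.03 for H2BC12. All 8 were negative, and the calls of H2BC4 and H2BC5 held in every alternative run.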

How the results depend on the processing

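The counts of called histone genes ranged as follows with 1 library left out: 17 to 24 for the knockdown in DMSO, 14 to 18 for the knockdown under XMU-MP1, 12 to 18 for XMU-MP1 in control siRNA, 3 to 12 for XMU-MP1 after the knockdown and 2 to 9 for the interaction. For the knockdown under XMU-MP1, 14 calls are 23.0% of the tested histone genes, against 25.4 to 38.1% of all genes in those fits. There 18 calls are 29.5%, against 28.2%. For the knockdown in DMSO, 17 calls are 27.9%, against 23.0 to 24.6%, and 24 calls are 39.3%, against 26.2%. For XMU-MP1 in control siRNA, 12 calls are 19.7%, against 3.24 and 3.88%, and 18 calls are 29.5%, against 13.9%. These shares are of calls in either direction. XMU-MP1 after the knockdown gave 28 calls with DESeq2 and 5 with only the compared groups, against 14. Scaled to plain totals, the siYT_XMU sums were 1275 CPM over all histone genes, 49.9 for H1, 287 for H2A, 836 for H2B, 44.1 for H3 and 57.7 for H4, and the siC_DMSO H2B sum was 59.5, or 60.4 without ribosomal RNA. No called value changed sign. The median of all genes moved by over 0.1 with some scalings, and stood, in the knockdown under XMU-MP1, at 0.13 with RLE, 0.20 with upper-quartile scaling and -0.43 with FPKM plus 0.1, against 0.04. Whether the letters pair the libraries is not settled. Libraries of the same letter in different groups had correlations from -0.02 to 0.17 (18 pairs, 2 over 0.1), and unlike letters were not compared. Library a had the highest ribosomal RNA share in siC_DMSO (2.15%), siC_XMU (2.52%) and siYT_DMSO (8.35%), but library c had it in siYT_XMU. A replicate block gave 19, 16, 14, 11 and 7 calls in the order above. All-gene shares with that block were 32.0%, 35.3%, 9.47%, 11.6% and 2.6%. Depth was lowest in library c of siYT_XMU, where a count of 0 allows up to 0.622 CPM.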
